A study of Homo sapiens with 8 samples.

Results

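The IFIT and IFI genes code for proteins that cells make in response to interferon, and 10 of them (IFIT1, IFIT2, IFIT3, IFIT5, IFI6, IFI27, IFI44, IFI44L, IFITM1 and IFITM3) were followed here among 19035 genes with a transcript level. The 10 were named as a list and were selected on the same contrast that is described below, so their differences are a description and carry no test. RNA came from the breast cancer line KPL-1, of human origin, engineered to switch on Cas9 with doxycycline (iCas9). The 3 sgSETD1A libraries came from cells with a guide against SETD1A, labelled as a SETD1A knockout, and the 3 sgEmpty libraries from control cells whose vector held no guide, labelled as wild type. All 6 were taken on day 7 of doxycycline treatment, so both groups carried the inducible nuclease and received the drug. The labels do not say whether the replicates were separate cultures, so the spread that a p-value is measured against may be technical. Nor do they say whether the cells were 1 clone or how many guides against SETD1A were used.

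Interferons bind receptors at the cell surface whose attached kinases, JAK1 and TYK2, phosphorylate STAT proteins, among them STAT2. These join IRF9 in a complex that enters the nucleus and binds a short DNA element, the interferon-stimulated response element, in front of its target genes. Many of the target genes, those described here included, code for proteins that restrict viruses, and several cancer cell lines express part of the set without added interferon. SETD1A is a methyltransferase that places methyl groups on histone H3 at active promoters.

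SETD1A itself had 9.36, 11.3 and 10.7 TPM (transcript abundance, a level scaled for transcript length and to 1000000 in each library) in sgSETD1A libraries, against 17.5, 17.5 and 18.1 TPM in sgEmpty libraries. It fell by 0.71 on the log2(TPM + 1) scale (SE 0.071, adjusted p = 9.13e-05 by limma with Benjamini-Hochberg adjustment). Its transcript remained in every sgSETD1A library, and a transcript level does not measure how many copies of the gene were cut. Breast luminal markers matched the line's label, with all 8 at 1 TPM or more in each library. Of 12 immune cell markers only CD68 reached 1 TPM; their summed level was 1.61 to 2.31 TPM in sgSETD1A libraries and 1.72 to 2.10 TPM in sgEmpty libraries. CD2, MS4A1, CLEC4C and LILRA4 were listed at 0 in all 6 libraries. Of 8 stromal and endothelial markers only COL1A1 reached 1 TPM, and the 8 summed to 2.50 to 4.28 TPM in sgSETD1A libraries and 2.63 to 3.23 TPM in sgEmpty libraries. The sgSETD1A replicate 1 library stood somewhat apart, with correlations across genes of 0.996 and 0.995 with the other sgSETD1A libraries, which correlated at 0.998 with each other. It was the highest sgSETD1A library for 0 of the 10 genes and the lowest for 4. Without it the log2 differences given below changed little, to 2.23 for IFIT1, 1.88 for IFI6, 1.90 for IFI27 and 0.22 for IFITM3.

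Promoter sequences were read first, because the pathway's DNA element is what these genes are known to share. For that reason its presence in them is a description and no test. RefSeq promoter windows on GRCh38.p14, each 300 bases long from 250 bases before the annotated start to 50 after it, matched 9 of the 10 genes (IFIT2 was not matched), with 12 windows in all because some genes have more than 1 annotated start. They were searched for an element-like run, GAAANNGAAA, with N for any base, which reads TTTCNNTTTC on the other strand. The stretches below, given 5′ to 3′ on the strand of each gene, hold every match in their window, in capitals. IFIT1, IFI27 and IFI6 are shown because they had the highest log2 differences of the set, IFIT5 and IFITM1 because theirs were lower, and IFITM3 because it had the highest level and the lowest difference among those tested.
IFIT1: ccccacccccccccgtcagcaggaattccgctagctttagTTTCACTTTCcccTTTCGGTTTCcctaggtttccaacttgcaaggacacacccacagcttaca
IFIT5: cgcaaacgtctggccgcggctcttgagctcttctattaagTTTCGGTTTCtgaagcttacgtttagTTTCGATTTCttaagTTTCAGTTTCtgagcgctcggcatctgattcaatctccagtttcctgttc
IFI6: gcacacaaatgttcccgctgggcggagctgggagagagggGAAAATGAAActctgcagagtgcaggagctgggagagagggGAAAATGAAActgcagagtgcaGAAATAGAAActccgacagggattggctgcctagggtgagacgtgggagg
IFI27: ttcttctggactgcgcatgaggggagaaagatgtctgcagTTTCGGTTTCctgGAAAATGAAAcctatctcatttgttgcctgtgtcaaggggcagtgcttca
IFITM1: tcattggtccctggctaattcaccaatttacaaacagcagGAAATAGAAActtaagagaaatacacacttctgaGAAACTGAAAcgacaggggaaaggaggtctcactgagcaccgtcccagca
IFITM3: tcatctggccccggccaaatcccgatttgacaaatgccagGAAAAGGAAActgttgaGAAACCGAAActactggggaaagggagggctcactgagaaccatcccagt

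These stretches lie at chr10:89392467-89392569 on the plus strand for IFIT1, chr10:89414483-89414613 on the plus strand for IFIT5 and chr1:27672236-27672388 on the minus strand for IFI6. Those of IFI27 and IFITM1 are chr14:94110588-94110690 and chr11:313960-314083 on the plus strand, and that of IFITM3 is chr11:320846-320952 on the minus strand. The stretches of IFIT5, IFITM1 and IFITM3 run past the annotated start, and those of IFIT1, IFI6 and IFI27 end before it. In IFIT1 the matches began 116 and 103 bases before the start, in IFI27 108 and 95 bases before the first of its annotated starts (187 and 174 before the second), and in IFI6 156, 115 and 93 bases before it. IFIT5 held 3 matches that began 45, 19 and 4 bases before the start, so the last of them ran across it. The matches in IFITM1 began 40 and 6 bases before the start and those in IFITM3 52 and 35 bases before it. The IFIT1, IFIT3 and IFIT5 matches all read TTTC on the gene's strand, those of IFI6, IFI44L, IFITM1 and IFITM3 all read GAAA, and IFI27 had 1 of each. The copies in IFI6 and IFI44L were partly repeats of the same letters, as the capitals of IFI6 show for its first 2 matches.

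The element-like run was present in all 9 matched genes and in all 12 of their windows, with 1 to 3 matches per window. Of all 35116 promoter windows of the same length it was present in 3.57%, and of 27305 genes with a window in 4.38%. A second run, TTCNNNGAA, resembles the GAS element that pairs of STAT proteins bind; it was found in 2 of the 9 genes (IFI27 and IFITM1) and in 9.38% of all genes with a window. In both genes it shared bases with an element-like match: in IFI27 it began 101 bases before the first start and 180 before the second, and in IFITM1 12 bases before it. A match is a run of letters and does not show that a factor was bound there in KPL-1 cells.

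**Figure D1:**
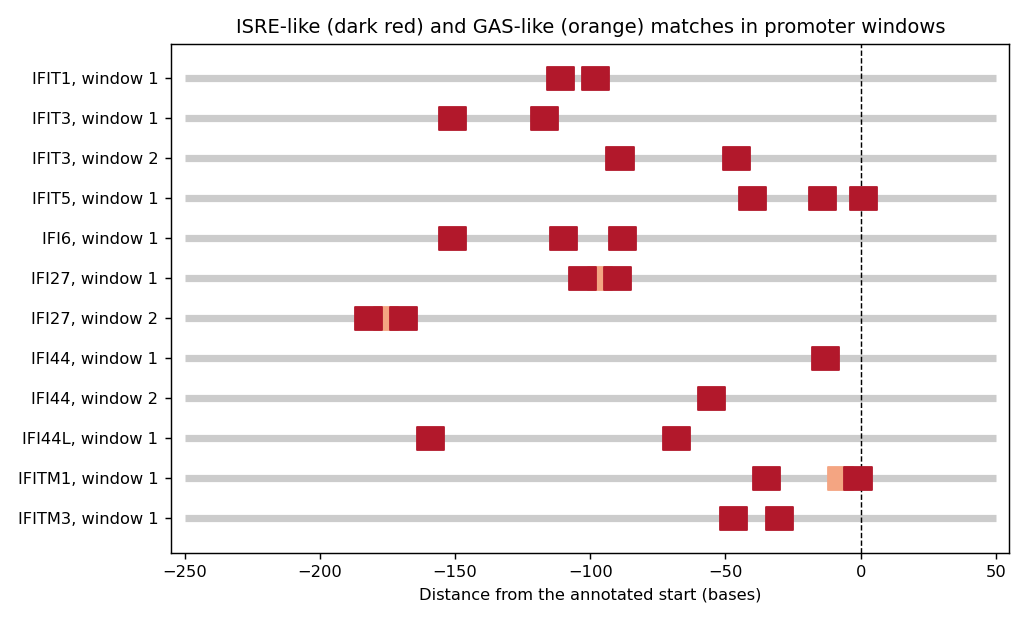
Positions of ISRE-like (GAAA, any 2 bases, GAAA) and GAS-like matches in the 12 promoter windows of 9 of the genes, in bases relative to the annotated start, from 250 before to 50 after it. Every window holds 1 to 3 ISRE-like matches, and the windows of IFI27 and IFITM1 also hold a GAS-like match.

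Genes of the set with the same number of matches varied in the size of the difference between groups. A relation between the number and the size was not tested. IFIT5 and IFI6 both had 3 matches, with log2 differences of 0.42 and 1.85. IFIT1, IFI27, IFITM1 and IFITM3 all had 2, with log2 differences of 2.23, 1.90, 0.57 and 0.20. IFIT3 also had 2 in each window, with 0.75. IFI44L had 2 and IFI44 had 1, with 0.19 and 0.99, and both were too low to be tested.

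The IFIT proteins bind foreign RNA in the cytoplasm. IFIT1, which recognises RNA whose cap lacks the host's methylation and blocks its translation, had 17.1, 17.7 and 16.6 TPM in sgSETD1A libraries, against 2.76, 2.31 and 3.66 TPM in sgEmpty libraries. The groups did not overlap, and the sgEmpty libraries differed more among themselves in proportion to their mean (a coefficient of variation of 23.7%) than the sgSETD1A libraries (3.10%). The means were 17.1 ± 0.53 TPM in sgSETD1A and 2.91 ± 0.69 TPM in sgEmpty (SD, n = 3 each), a ratio of 5.89 and a log2(TPM + 1) difference of 2.23. That was the highest difference of all 11885 genes tested, with 1 TPM added. The place depends on the added amount: with 5 TPM added IFIT1 was at 1.49, below IFI6 at 1.79. In bulk RNA a higher level in every cell cannot be told apart from a higher level in a share of the cells, here and for each gene below.

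IFIT2 and IFIT3, which assemble with IFIT1 and in the case of IFIT3 stabilise it, were far lower than IFIT1 in sgSETD1A libraries. IFIT2 had 2.86, 3.06 and 3.14 TPM in sgSETD1A libraries, against 0.926, 1.03 and 1.23 TPM in sgEmpty libraries. IFIT3 had 1.83, 2.11 and 1.75 TPM in sgSETD1A libraries, against 0.990, 0.566 and 0.648 TPM in sgEmpty libraries. For both genes the lowest sgSETD1A library lay above the highest sgEmpty library, and the gap was narrower for IFIT3, whose sgEmpty replicate 1 was the highest of its group. The ratios of mean TPM were 2.85 and 2.58 and the log2(TPM + 1) differences 0.97 for IFIT2 and 0.75 for IFIT3. Both are low enough for the added 1 TPM to compress the difference: with 0.1 TPM added instead, the log2 differences were 1.43 and 1.29. IFIT3 passed the filter of a mean of 1 TPM only through the sgSETD1A libraries.

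IFIT5, which binds RNA with an uncapped phosphate end, had the lowest difference of the IFIT genes. It had 5.26, 5.12 and 5.80 TPM in sgSETD1A libraries, against 3.79, 3.71 and 3.81 TPM in sgEmpty libraries. The groups were apart, with a ratio of mean TPM of 1.43 and a log2(TPM + 1) difference of 0.42. In sgEmpty libraries IFIT5 was above IFIT1, and in sgSETD1A libraries IFIT1 was above IFIT5 in every library. Summed, the 4 IFIT genes had 27.0, 28.0 and 27.3 TPM in sgSETD1A libraries, against 8.47, 7.61 and 9.34 TPM in sgEmpty libraries.

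**Figure D2:**
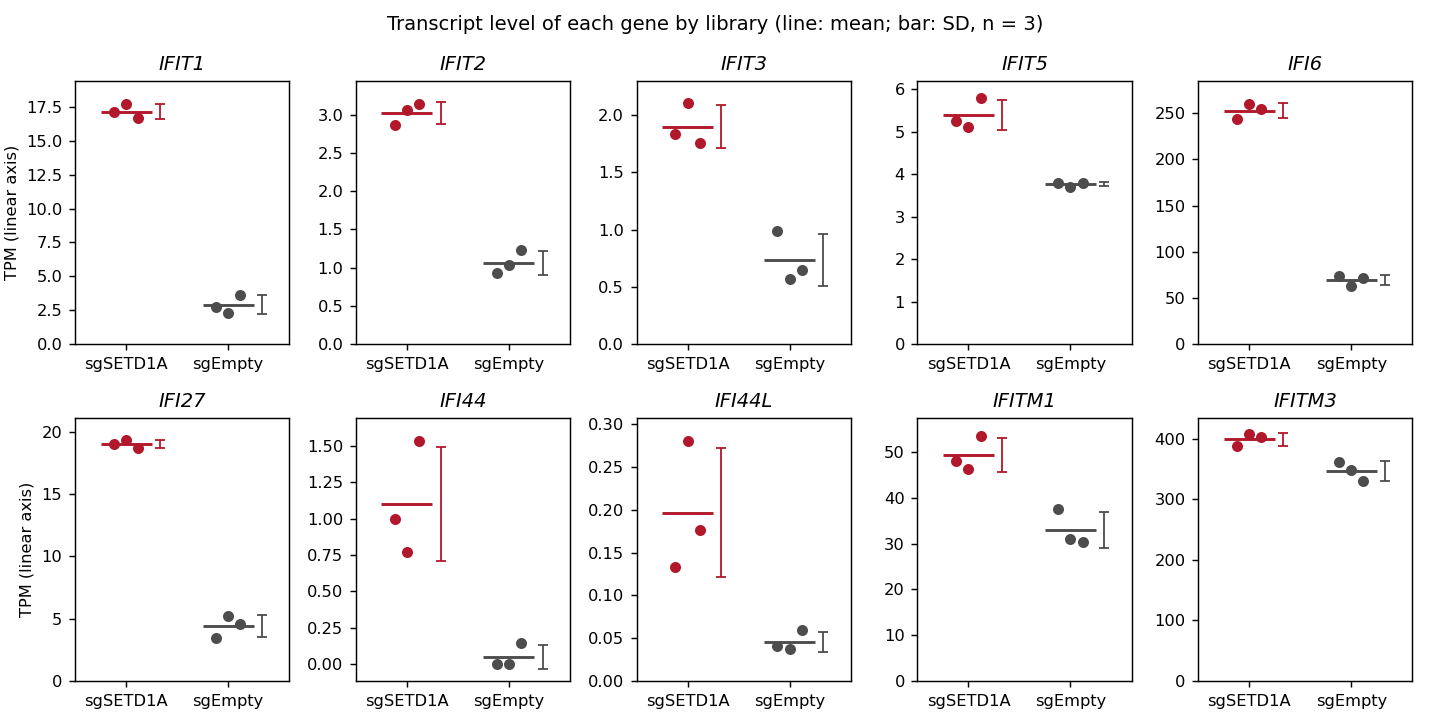
TPM of each of the 10 genes in the 3 sgSETD1A libraries (left in each panel) and the 3 sgEmpty libraries (right), with the mean and SD of each group and a separate linear axis per gene. Every sgSETD1A point lies above every sgEmpty point in each of the 10 panels, widely so for IFIT1, IFI6 and IFI27 and narrowly for IFITM3; the lower SD bar of IFI44 in sgEmpty extends below 0 because 2 of its 3 libraries are listed at 0.

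IFI6 and IFI27 belong to a family of small hydrophobic membrane proteins; IFI6 acts at the endoplasmic reticulum and mitochondria and restricts flaviviruses. IFI6 had 243.6, 260.3 and 254.9 TPM in sgSETD1A libraries, against 73.3, 63.3 and 72.1 TPM in sgEmpty libraries. It showed the largest difference of the set in TPM, 183.3, with means of 252.9 ± 8.5 TPM in sgSETD1A and 69.6 ± 5.49 TPM in sgEmpty (SD, n = 3 each). The ratio of mean TPM was 3.63 and the log2(TPM + 1) difference 1.85, the third highest of all genes tested on that scale. IFI27 had 19.0, 19.3 and 18.7 TPM in sgSETD1A libraries, against 3.43, 5.25 and 4.54 TPM in sgEmpty libraries. Its ratio of 4.32 was above that of IFI6, although its level in sgSETD1A libraries was far below that of IFI6 in either group. The log2(TPM + 1) difference of IFI27 was 1.90, second only to IFIT1 on that scale, and its sgSETD1A libraries spanned less than 1 TPM. With 5 TPM added it was 1.36, below IFI6 at 1.79.

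IFI44 and IFI44L are related cytoplasmic proteins whose genes lie side by side on chromosome 1, and both were near the floor of the table. IFI44 had 0.997, 0.768 and 1.53 TPM in sgSETD1A libraries, against 0.148 TPM in sgEmpty replicate 3 and a listing at 0 in sgEmpty replicates 1 and 2. IFI44L had 0.134, 0.281 and 0.176 TPM in sgSETD1A libraries, against 0.0413, 0.0374 and 0.0593 TPM in sgEmpty libraries. The groups were apart for both, yet neither averaged 1 TPM, so they were outside the genes tested. No ratio is given for IFI44, since 2 sgEmpty libraries were at 0 and TPM keeps no depth from which a floor could be set. The difference of means on the log2 scale depended on the added amount: for IFI44 it was 0.99 with 1 TPM added and 3.10 with 0.1 TPM, and for IFI44L 0.19 and 1.00.

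IFITM1 and IFITM3 are membrane proteins that hinder the fusion of viruses with the cell, IFITM1 mainly at the surface and IFITM3 in endosomes, and both were already abundant in sgEmpty libraries. IFITM1 had 48.1, 46.4 and 53.6 TPM in sgSETD1A libraries, against 37.5, 31.0 and 30.4 TPM in sgEmpty libraries. The groups did not overlap; the ratio of mean TPM was 1.50 and the log2(TPM + 1) difference 0.57. IFITM3 had 387.9, 408.6 and 402.4 TPM in sgSETD1A libraries, against 362.6, 348.6 and 330.1 TPM in sgEmpty libraries. The 2 groups came closest here, with a ratio of 1.15 and a log2(TPM + 1) difference of 0.20, or 0.12 after median-ratio rescaling of the libraries. Reads of IFITM3 and its near copy IFITM2 can be hard to assign, so the split between these 2 genes is uncertain.

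In sgSETD1A libraries the order of the levels was IFITM3, IFI6, IFITM1, IFI27, IFIT1, IFIT5, IFIT2, IFIT3, IFI44 and IFI44L, and no 2 neighbours in that order overlapped between libraries. In sgEmpty libraries the order was the same except that IFIT5 stood above IFIT1. There the ranges of IFI27 and IFIT5, of IFIT2 and IFIT3, and of IFI44 and IFI44L overlapped, so these neighbours did not differ beyond their spread. The 10 genes summed to 726.7, 763.6 and 758.5 TPM in sgSETD1A libraries, against 485.4, 455.7 and 446.7 TPM in sgEmpty libraries. IFITM3 made up 53.0% to 53.5% of that sum in sgSETD1A libraries and 73.9% to 76.5% in sgEmpty libraries. IFI6 made up 33.5% to 34.1% in sgSETD1A libraries and 13.9% to 16.1% in sgEmpty libraries. The set's total was thus mostly 2 genes in both groups, and IFI6 held the greater part of the difference between them.

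Of the 10 genes, 8 were tested in the fit across all genes and all 8 were past its threshold in the higher direction. Across all 11885 genes tested, 41.5% were past the threshold, 28.0% as higher and 13.5% as lower in sgSETD1A. Every sgSETD1A library was above every sgEmpty library for 10 of the 10 genes, and for 36.4% of the genes tested. Since the genes were selected on this contrast, nothing is read from these counts. After median-ratio rescaling the calls across all genes split into 1766 higher and 2333 lower, against 3327 and 1605 without it, and the same 8 genes stayed higher. The median log2 difference of all tested genes was 0.07, and that rescaling shifted the difference of a gene by a median of -0.08.

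**Figure D3:**
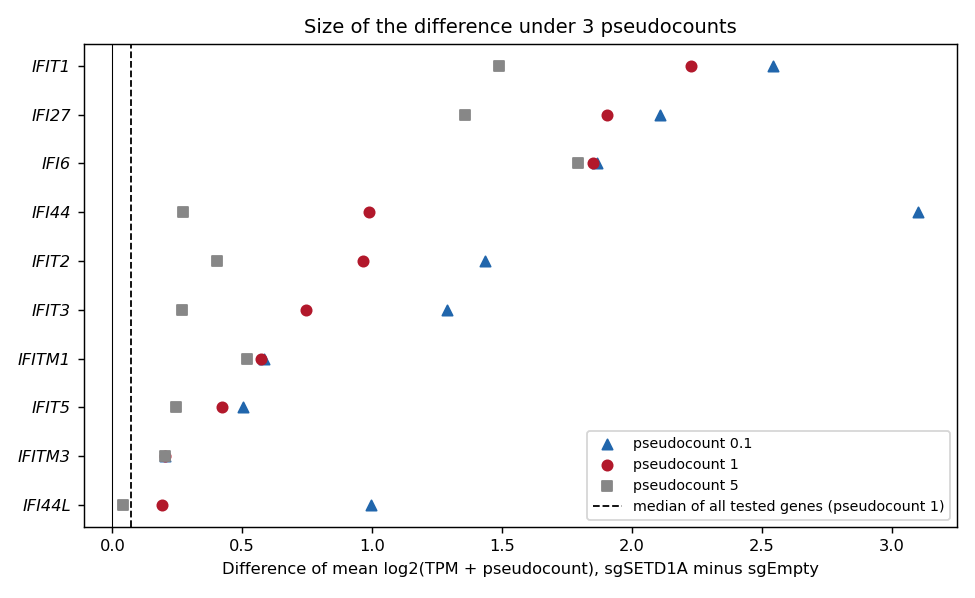
Difference of mean log2(TPM + added amount), sgSETD1A minus sgEmpty, for each of the 10 genes with 0.1, 1 or 5 TPM added. The added amount hardly moves IFI6, IFITM1 and IFITM3, moves IFIT1 between 1.49 and 2.54, and sets nearly the whole value for IFI44, from 0.27 to 3.10.

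The nearest relatives of these genes by sequence family were compared next. Their list was also chosen with earlier results of these data known, so the comparison is a description. None of the 4 tested relatives passed the test: the log2 difference was 0.06 for IFITM2 (adjusted p = 0.511, limma), 0.10 for IFITM10 (0.310), 0.07 for IFI27L2 (0.483) and -0.02 for IFI27L1 (0.929). IFITM2, which like IFITM3 acts in endosomes and lies in the same cluster on chromosome 11, had 14.6, 13.1 and 14.6 TPM in sgSETD1A libraries, against 13.4, 14.5 and 12.6 TPM in sgEmpty libraries. IFI27L1 had 14.5, 22.2 and 14.2 TPM in sgSETD1A libraries, against 19.8, 16.1 and 15.1 TPM in sgEmpty libraries, so the groups overlapped for both. IFIT1B and IFITM5 were listed at 0 in all 6 libraries. The median log2 difference of the 4 tested was 0.07, equal at that precision to the median of all genes tested.

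Genes that share the IFI name without the family were mixed. IFIH1, a sensor of long double-stranded RNA, rose to 8.58, 8.44 and 7.77 TPM in sgSETD1A libraries, against 5.68, 4.81 and 5.58 TPM in sgEmpty libraries (log2 difference 0.54, SE 0.080, adjusted p = 8.03e-04, limma). IFI35 passed with a log2 difference of 0.29 (adjusted p = 0.0364), a call that was lost with no filter (0.0801), under both rescalings (0.0993 median-ratio, 0.0859 quantile) and with any 1 of 4 libraries left out. Those were replicates 2 and 3 of either group, with a highest adjusted p of 0.123. IFI30, a lysosomal thiol reductase, had 160.1, 165.8 and 157.6 TPM in sgSETD1A libraries, against 165.5, 150.4 and 134.9 TPM in sgEmpty libraries, and did not pass (0.11, adjusted p = 0.215). IFI16, a DNA sensor, was listed at 0 in every library.

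The pathway that controls these genes was followed from its ligands to its other targets, with lists chosen with earlier results of these data known. Without rescaling, high shares of genes that rose were not particular to these lists. Among transcripts often used as references 54.5% rose, and among luminal markers 75%. After median-ratio rescaling these shares were 45.5% and 37.5%, with 1766 of all 11885 genes tested higher. By that rescaling 35.7% of the tested signal transducers, 57.1% of the sensors and adaptors and 71.4% of the other antiviral genes rose. Among the tested receptors the share was 0%. Interferon transcripts were at or near 0. IFNB1 had 0.168 and 0.351 TPM in sgSETD1A replicates 2 and 3 and was listed at 0 in sgSETD1A replicate 1 and in all 3 sgEmpty libraries. IFNE, IFNK and IFNG were listed at 0 in all 6 libraries, and the 3 interferon lambda genes IFNL1, IFNL2 and IFNL3 stayed below 1 TPM throughout. Such levels were outside the test, and TPM gives no depth with which to judge them.

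None of the 5 tested receptor genes passed in either direction, with a median log2 difference of 0.04. IFNAR1, a chain of the type I interferon receptor, had 16.8, 16.0 and 15.8 TPM in sgSETD1A libraries, against 16.0, 15.9 and 15.4 TPM in sgEmpty libraries (0.04, adjusted p = 0.599, limma). Its partner IFNAR2 averaged 5.57 ± 0.78 TPM in sgSETD1A and 4.63 ± 1.03 TPM in sgEmpty (SD, n = 3 each), with overlapping libraries (0.23, adjusted p = 0.208).

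Of 14 signal transducers, all tested, 7 rose (50%, against 28.0% of all genes tested), 0 fell and 7 did not pass. The median log2 difference of the 14 was 0.25. IRF9, the DNA-binding part of the complex, rose to 56.4, 63.3 and 68.6 TPM in sgSETD1A libraries, against 29.9, 31.1 and 33.3 TPM in sgEmpty libraries (0.97, SE 0.071, adjusted p = 1.72e-05, limma). The groups were far apart. IRF7, which drives interferon genes, rose by 0.41 (adjusted p = 0.00246) and the kinase JAK1 by 0.38 (adjusted p = 2.30e-04). STAT2, which joins IRF9 in the complex, rose by only 0.21 (adjusted p = 0.0143), and that call was lost after median-ratio rescaling (0.0882) and with sgSETD1A replicate 3 left out (0.0582). The feedback inhibitors SOCS1, SOCS3 and USP18 did not pass, with log2 differences of -0.33, 0.31 and 0.21. For USP18 every sgSETD1A library was above every sgEmpty library. It was called higher by limma without a trend (adjusted p = 0.0256). SOCS3 was called higher by limma without a trend (0.0450) and with sgSETD1A replicate 1 left out (0.0303). The number that rose was 5 after median-ratio rescaling, 6 after quantile normalization and 10 without sgSETD1A replicate 1.

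Of 14 genes for sensors of foreign nucleic acid and their adaptors, 7 were tested. Of these 5 rose (71.4%, against 28.0% of all genes tested), 0 fell and 2 did not pass. The median log2 difference of the 7 was 0.24. DDX58, the gene for the RNA sensor RIG-I, rose to 11.4, 11.3 and 10.4 TPM in sgSETD1A libraries, against 7.75, 6.82 and 7.00 TPM in sgEmpty libraries (0.56, adjusted p = 3.85e-04, limma). IFIH1, given above, was next, followed by the adaptor TICAM1 (0.34, adjusted p = 0.00736) and TRIM25, a ligase that acts on RIG-I (0.24, adjusted p = 0.00136). The other gene that rose was TBK1 (0.13, adjusted p = 0.0371). Its call was lost after median-ratio rescaling (0.404), quantile normalization (0.151), limma without a trend (0.0601) and the replicate block (0.0632). It was also lost without any 1 library other than sgSETD1A replicate 2. In each of these cases 4 of the 7 rose. MAVS, the shared adaptor of the RNA sensors, had overlapping libraries and did not pass (0.06, adjusted p = 0.346).

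Of 22 other antiviral genes, 14 were tested. Of these 11 rose (78.6%, against 28.0% of all genes tested), 0 fell and 3 did not pass. The median log2 difference of the 14 was 0.49, against 0.07 for all genes. OAS1, an enzyme that senses double-stranded RNA and makes a second messenger, rose to 10.6, 11.1 and 11.1 TPM in sgSETD1A libraries, against 3.22, 1.82 and 2.15 TPM in sgEmpty libraries (1.84, adjusted p = 1.59e-05, limma). Its relative OAS3 rose by 1.18 (adjusted p = 4.25e-06). ISG15, a ubiquitin-like modifier, averaged 250.2 ± 15.3 TPM in sgSETD1A and 123.5 ± 8.6 TPM in sgEmpty (SD, n = 3 each), a log2 difference of 1.01 (adjusted p = 5.28e-06). OASL rose by 0.89 (adjusted p = 0.00317), with a wide spread in sgSETD1A libraries (1.68, 2.43 and 3.44 TPM, against 0.871, 1.00 and 0.695 TPM in sgEmpty libraries). OASL and HERC5, another of the 11, averaged under 1 TPM in sgEmpty libraries and so entered the test only through the sgSETD1A libraries. Those that did not pass included ISG20 (0.18, adjusted p = 0.255) and PLSCR1 (0.04, adjusted p = 0.619).

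Of the 8 antiviral genes too low to test, 7 had every sgSETD1A library above every sgEmpty library. MX1, a guanosine triphosphatase that is a widely used marker of the interferon response, was the exception. It had 0.661, 0.732 and 0.886 TPM in sgSETD1A libraries, against 0.904, 1.29 and 0.691 TPM in sgEmpty libraries, so the groups overlapped. The share of genes with groups apart was not computed over all genes this low. The list was chosen with earlier results known, so nothing is read from the count of 7. Of the 18 other antiviral genes with a promoter window, 12 held the element-like run.

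**Figure D4:**
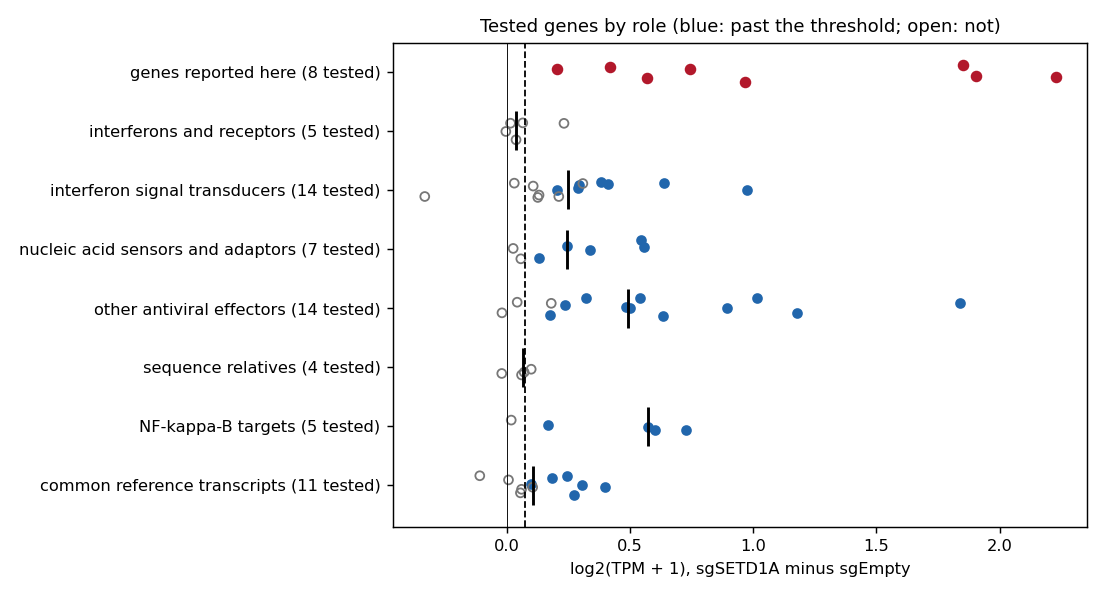
Log2(TPM + 1) difference, sgSETD1A minus sgEmpty, of each tested gene, by role from the 10 genes through ligand receptors, transducers and sensors to other antiviral genes, with the median of each list other than the 10 genes as a black line and the median of all genes tested (0.07) as a dashed line. The medians of receptors (0.04) and sequence relatives (0.07) sit at or near the dashed line, while the other antiviral genes reach up to 1.84 with a median of 0.49. Also shown are 5 NF-kappa-B targets, with a median of 0.57, and 11 transcripts often used as references, with a median of 0.11.

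The element-like run was then looked up in the promoters of other genes, without a test of genes with it against genes without it. Leaving out the 10 genes, 337 tested genes held it in a promoter window, of which 101 rose and 49 fell; 30.0% rose, close to the 28.0% of all genes tested. Among 9385 tested genes with a window and no match, 2604 rose and 1285 fell, and 27.7% rose. The median log2 difference was 0.09 with the run and 0.07 without it. After median-ratio rescaling, 60 genes with the run rose and 62 fell, and 1360 genes without it rose and 1888 fell. The shares that rose were then 17.8% with the run and 14.5% without it, and after quantile normalization they were 21.1% with it and 17.7% without it.

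The genes that lie beside the set on the chromosomes were compared to see whether whole neighbourhoods moved. Taking the 5 nearest protein-coding genes on each side, 32 neighbours were tested. Of these 8 rose (25%, against 28.0% of all genes tested) and 1 fell, with a median log2 difference of 0.09. Past the threshold in either direction were 28.1% of the neighbours, against 41.5% of all genes tested. The counts for each locus below rest on few genes, and nothing is read from them. After median-ratio rescaling 4 rose and 2 fell. Around the IFITM genes on chromosome 11, 0 of 8 tested neighbours passed. Around the IFIT cluster on chromosome 10, 7 neighbours were tested. ACTA2, a smooth muscle actin, fell to 20.8, 24.3 and 23.0 TPM in sgSETD1A libraries, against 33.7, 30.1 and 32.5 TPM in sgEmpty libraries (-0.48, adjusted p = 5.73e-04, limma). RPP30 rose by 0.19 (adjusted p = 0.0376), a call that was lost with no filter (0.0639), after median-ratio rescaling (0.177), after quantile normalization (0.113) and without any 1 library other than sgSETD1A replicate 1 (highest adjusted p = 0.126).

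Beside IFI27 on chromosome 14, 3 of 5 tested neighbours rose: the deubiquitinase gene OTUB2 by 0.47 (adjusted p = 0.00208, limma), the protease inhibitor gene SERPINA1 by 0.44 (0.0171) and DDX24 by 0.18 (0.00446). The SERPINA1 call was lost after quantile normalization (0.0557) and with sgEmpty replicate 3 (0.0611) or sgSETD1A replicate 2 (0.0509) left out, and the call of DDX24 after median-ratio rescaling (0.0724). Beside IFI6 on chromosome 1, 3 of 7 rose, GPR3 by 0.39, WASF2 by 0.14 and STX12 by 0.19, and all 3 calls were lost without sgEmpty replicate 2 (adjusted p = 0.0588, 0.0513 and 0.0574). Each of these 3 calls was also lost under median-ratio rescaling, quantile normalization or both. Beside IFI44 and IFI44L, 1 of 5 rose: PRKACB, a catalytic subunit of protein kinase A, had 8.00, 7.01 and 7.63 TPM in sgSETD1A libraries, against 3.80, 4.86 and 3.57 TPM in sgEmpty libraries (0.76, adjusted p = 5.02e-04).

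**Figure D5:**
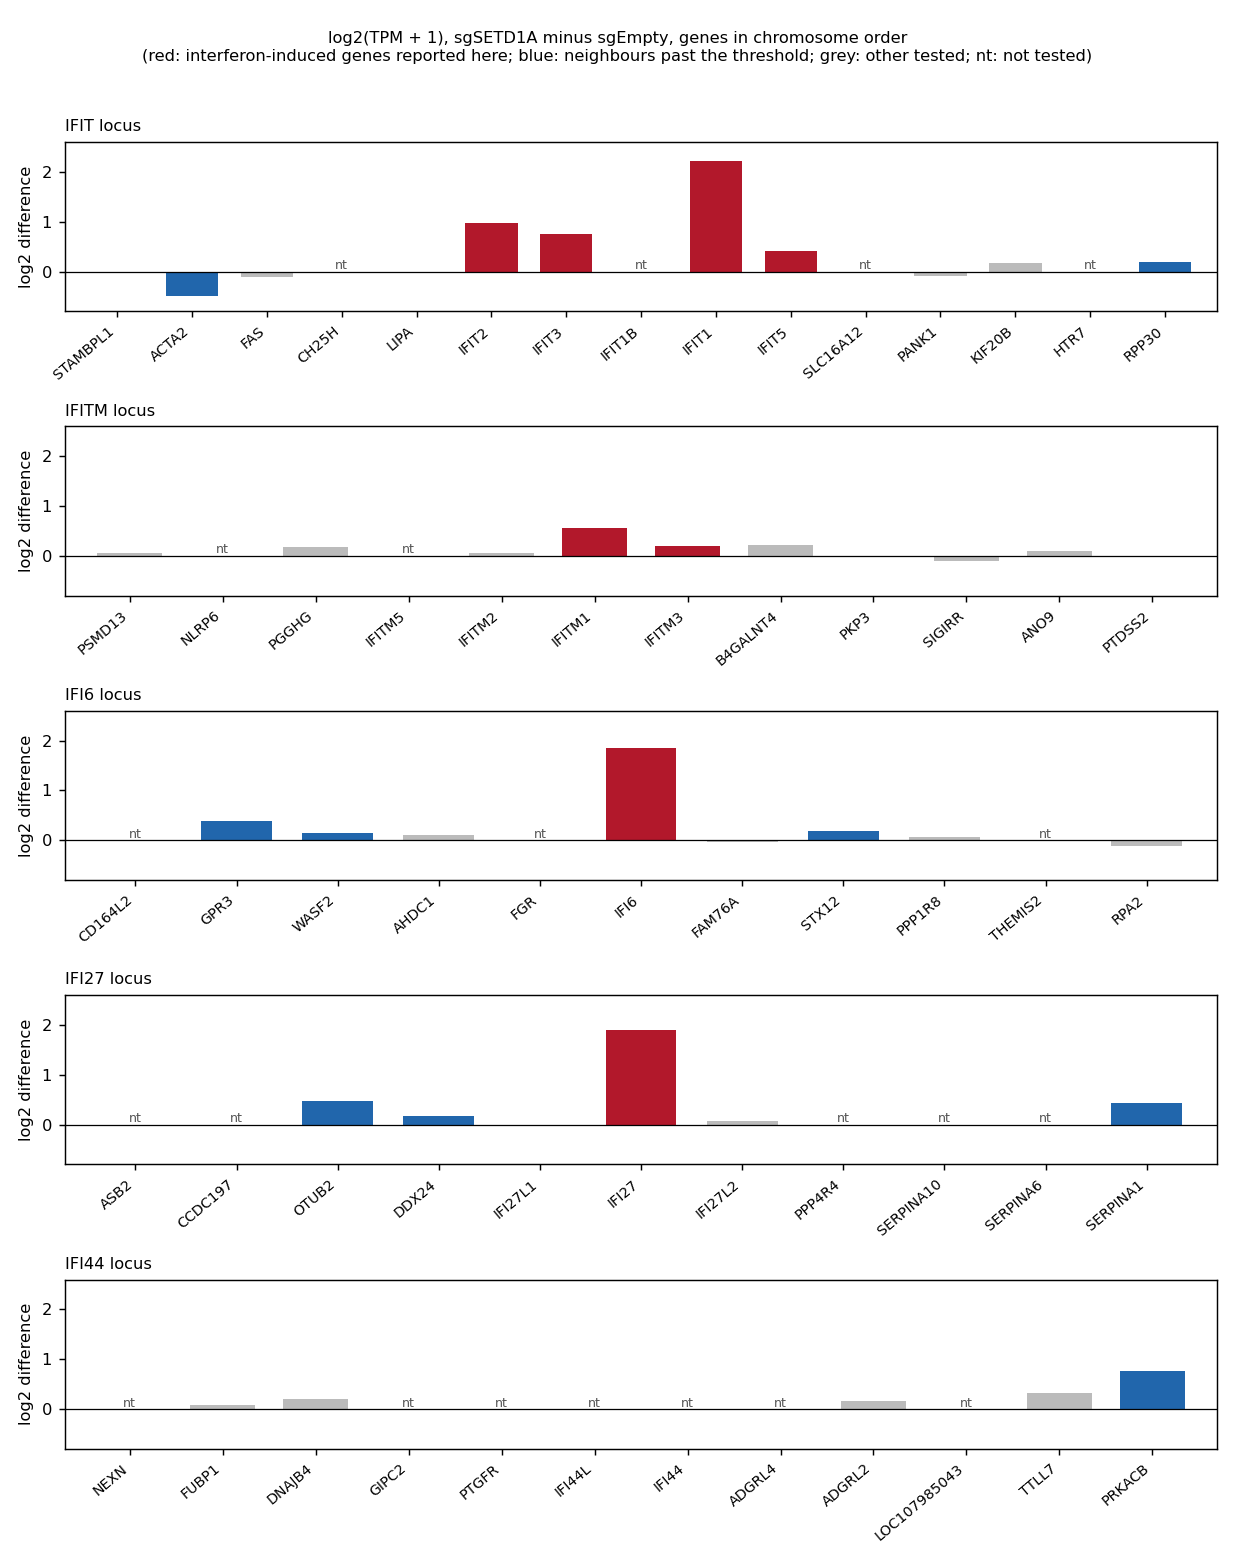
Log2(TPM + 1) difference, sgSETD1A minus sgEmpty, of the genes of each locus and their nearest protein-coding neighbours in chromosomal order, evenly spaced and not to scale; nt marks genes that were not tested, and a bar too short to see is a difference near 0. IFIT1, IFI6 and IFI27 stand well above their neighbours, and ACTA2 at the IFIT locus is the one neighbour past the threshold as lower. Other neighbours with a difference below 0, such as FAS and RPA2, did not pass.

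The genes whose pattern over the 6 libraries was most like that of these genes were found by the root mean square distance of log2(TPM + 1), each taken relative to its sgEmpty mean. OAS1 was nearest to IFIT1, IFI6 and IFI27, at distances of 0.35, 0.13 and 0.32. IRF9 was nearest to IFIT2 (0.054) and NUPL1, now NUP58, a nuclear pore gene, to IFIT5 (0.026). DIRAS1 was nearest to IFITM1 (0.036) and CALML5 to IFITM3 (0.014). To the median pattern of the 8 tested genes the nearest were DAB2, ACCN2, COX6C, EGLN3 and ZFP36L1, at 0.053 to 0.056. COX6C, a subunit of a respiratory chain complex, had 1553, 1614 and 1669 TPM in sgSETD1A libraries, against 850.7, 867.7 and 875.8 TPM in sgEmpty libraries. With 6 libraries in 2 groups, this likeness reflects mainly the size of the difference between the groups.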

How the data were processed

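Stranded mRNA libraries of 6 samples (3 sgSETD1A, 3 sgEmpty) were used; the guide pool libraries were not used here. The authors deposited a signal table of TPM for 19035 symbols. Per the submitters' processing notes, the tools were RSEM 1.3.1, STAR 2.6.0c and bcl2fastq 2.20.0, with the hg19 build; no roles are stated. A row without a gene name held 1000000, the column total and so the whole of each library, and was left out; 0 of its per-sample columns were unused. TPM keeps no depth, so depth is unknown and no counting interval is given.

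Groups came from the sample titles. Genes with a mean of at least 1 TPM were compared as log2(TPM + 1) with limma 3.58.1 (trend, R 4.3.3), adjusted by Benjamini-Hochberg over 11885 genes, at 0.05. Differences on this scale understate the change of low genes. The fit was tested on simulated data. An exact permutation test of 3 against 3 cannot go below 0.1 and was not used. Members and lists were chosen with earlier results of these data known. Named were all 10 members, tested relatives and IFI-named genes, up to 4 called genes with the largest difference per list, called neighbours and the nearest profiles; receptors, uncalled genes, STAT2, MX1 and others named beside them were chosen after their values were seen. A few genes that this rule or these lists name are not reported here. Symbols were matched to RefSeq GRCh38.p14 (16921 current, 1897 synonyms, 217 unmatched), whose promoter windows gave the sequences; its coordinates apply only to these windows. Alternatives were other added amounts, filters and scalings, limma without a trend, a replicate block and leaving out each library.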

Additional observations from a re-analysis of the deposited data

How the results depend on the processing

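The 8 tested genes of the set were past the threshold and higher under every alternative that tested them. With a mean of at least 5 TPM only 5 of them were tested, and all 5 were called. With no filter all 10 were tested and called, including IFI44 and IFI44L, which were near the floor. Across all genes 4364 were called with a mean of at least 5 TPM and 4521 with no filter, against 4932 in the main fit. The genes were selected on this contrast, so nothing is read from their calls. None of the alternatives reversed a called value. The log2 difference of IFIT1 ran from 2.11 to 2.36 when each library was left out, and that of IFI44 from 0.84 to 1.10. Of 109 alternative values of the 8 tested genes, 95 moved by less than the spread between replicates. Of 1547 alternative values for other genes named or listed, 57 lost and 25 gained a call. The IFI-named count of 2 became 1 with no filter, quantile normalization or median-ratio rescaling, and ran from 1 to 3 with a library left out: 1 without sgSETD1A replicate 2 or 3 or sgEmpty replicate 2 or 3, and 3 without sgEmpty replicate 1. The NF-kappa-B count of 4 became 2 with a mean of at least 5 TPM, which tests fewer genes. The stromal count of 0 ran from 0 to 1, with 1 (COL1A1) without sgSETD1A replicate 1. Same-numbered libraries were not paired in the fit, since the labels do not say that the numbers pair them. Their deviations from the group means correlated at 0.085, -0.104 and 0.169. Only sgSETD1A replicate 3 correlated best with its own number. With 3 libraries per group these values cannot decide whether the libraries were paired. With the number as a replicate block 4642 genes were called, against 4932 without it, and the same 8 genes were higher. TPM keeps no depth, so the precision of IFI44, IFI44L and the interferon genes cannot be judged from these values.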

Other observations

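Among 15 targets of NF-kappa-B, the factor that works beside the interferon pathway in antiviral and inflammatory responses, 5 were tested. Of these 4 rose (80%, against 28.0% of all genes tested) and 0 fell, with a median log2 difference of 0.57. TNFAIP3, a feedback inhibitor of the factor, had 2.13, 1.58 and 1.55 TPM in sgSETD1A libraries, against 0.554, 0.677 and 0.743 TPM in sgEmpty libraries (0.73, adjusted p = 0.00159, limma). TNFAIP3 averaged under 1 TPM in sgEmpty libraries, so it entered the test only through the sgSETD1A libraries, and without it 3 of 4 rose. NFKB2 and RELB, the partners of the non-canonical branch, rose by 0.57 (adjusted p = 1.09e-04) and 0.60 (adjusted p = 0.00468). NFKBIA rose by 0.17 (adjusted p = 0.00351), a call that was lost after median-ratio rescaling (0.0764), and ICAM1 did not pass (0.02, adjusted p = 0.881). IL6, CXCL2 and IL1B were listed at 0 in all 6 libraries.

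Of 12 genes mainly induced by type II interferon, only GBP2 was high enough to test, with 5.05, 6.48 and 5.51 TPM in sgSETD1A libraries, against 5.25, 5.19 and 4.91 TPM in sgEmpty libraries (0.12, adjusted p = 0.304, limma). Of 11 transcripts often used as references, 6 rose (54.5%, against 28.0% of all genes tested) and 0 fell, with a median log2 difference of 0.11. Median-ratio rescaling gave 5 that rose and 1 (TBP) that fell. ACTB had 4219, 4411 and 4406 TPM in sgSETD1A libraries, against 3719, 3424 and 3418 TPM in sgEmpty libraries. Of 8 luminal markers 6 rose (75%, against 28.0% of all genes tested) and 0 fell. Median-ratio rescaling gave 3 that rose and 1 (CDH1) that fell. The 8 summed to 16353 to 16870 TPM in sgSETD1A libraries and 14370 to 15441 TPM in sgEmpty libraries. Differences of the size of IFITM3 are in the range of these transcripts; whether a shift common to many abundant transcripts plays a part in them was not tested.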
